A study of Mus musculus with 8 samples.

Results

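ATF4 and 9 genes of its stress response were followed in RNA-seq of granulosa cells, the somatic cells that surround the oocyte, from ovaries of C57BL/6 mice on postnatal day 1 (PND1, 4 libraries) and postnatal day 4 (PND4, 4 libraries). The 10 genes were taken by symbol from the 11783 genes of the deposited table: the transcription factor genes Atf4, Cebpg, Atf5 and Ddit3, the feedback gene Trib3, the enzyme genes Asns, Aldh18a1 and Chac1, and the mTORC1 regulators Sesn2 and Ddit4. They were selected on function and on their PND4 minus PND1 differences, which had been seen for all genes, so that difference is given here as a description and supports nothing. The cells were dissociated from the ovary, no other treatment or genotype is named in the labels, and nothing there says how many animals went into a library or whether libraries came from separate litters. Values are FPKM, a read abundance scaled to gene length and library size, and the number of reads behind them is unknown.

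ATF4 is the effector of the integrated stress response. Kinases that sense amino acid shortage, unfolded protein in the endoplasmic reticulum, viral RNA or haem deficiency phosphorylate the initiation factor eIF2, which slows general translation while ATF4 is translated more. ATF4 binds DNA as a dimer with C/EBP proteins at composite C/EBP-ATF sites and induces genes for amino acid supply, redox balance, restraint of mTORC1 and, under lasting stress, cell death. Because much of this control acts on translation, RNA abundance does not report the amount of ATF4 protein.

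The promoter windows show where the letters of such a composite site stand, and the stretches below are those of the members with a match. RefSeq windows on GRCm38.p6, from 250 bases before to 50 after a start site, were found for all 10 genes (11 windows, of which Atf5 has more than 1). They were searched on both strands for TGATGNAA, the core of the composite site, and for TGACGNAA, a variant with CRE-like letters; no stretch can match both. Capitals mark the match, and each stretch is given 5′ to 3′ on the strand of the gene.
Asns, chr6:7693214-7693243, minus strand: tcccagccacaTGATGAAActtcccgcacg
Trib3, chr2:152344028-152344057, minus strand: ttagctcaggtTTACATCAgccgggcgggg
Chac1, chr2:119351023-119351082, plus strand: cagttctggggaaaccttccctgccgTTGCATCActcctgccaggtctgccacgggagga
Chac1, chr2:119350992-119351025, plus strand: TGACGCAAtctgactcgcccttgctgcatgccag
TGATGNAA was present in 3 of the 10 genes. In Asns it lay from -23 to -16 relative to the RefSeq start site, and in Chac1 on the opposite strand from -193 to -186. In Trib3 it lay on the opposite strand from 15 to 22, past the RefSeq start site. The GENCODE gene bounds given below differ from these starts. By those bounds the Asns match lay inside the gene and the Trib3 match just ahead of it. TGACGNAA was present in Chac1 only, among these genes, from -250 to -243. Of all 32851 mouse start sites in the table, 3.97% held TGATGNAA and 1.59% held TGACGNAA. The other 7 genes had neither string of letters in these windows, which says nothing of sites elsewhere.

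The genes fell into a group whose values were separated by age and a group whose values were not. In 5 of the 10 (Atf4, Cebpg, Trib3, Asns and Aldh18a1) every PND4 library lay above every PND1 library, and in the other 5 (Atf5, Ddit3, Chac1, Sesn2 and Ddit4) the ages overlapped. Of all 10756 tested genes, 3.16% were separated in that direction. All 10 genes had a positive PND4 minus PND1 difference on the log2(FPKM + 1) scale, as did 60.3% of all tested genes. Their median difference was 0.59, beside 0.078 for all tested genes. None of the 10 passed the test over all genes (limma on log2(FPKM + 1), Benjamini-Hochberg adjusted p under 0.05, by which 0.0093% of tested genes were called in either direction and 0% as higher at PND4). Their adjusted p-values ran from 0.296 to 0.984, and 5 of the 10 had an unadjusted p under 0.05, as had 635 of all tested genes. Nothing is read from these shares, since the genes were selected on this difference.

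**Figure D1:**
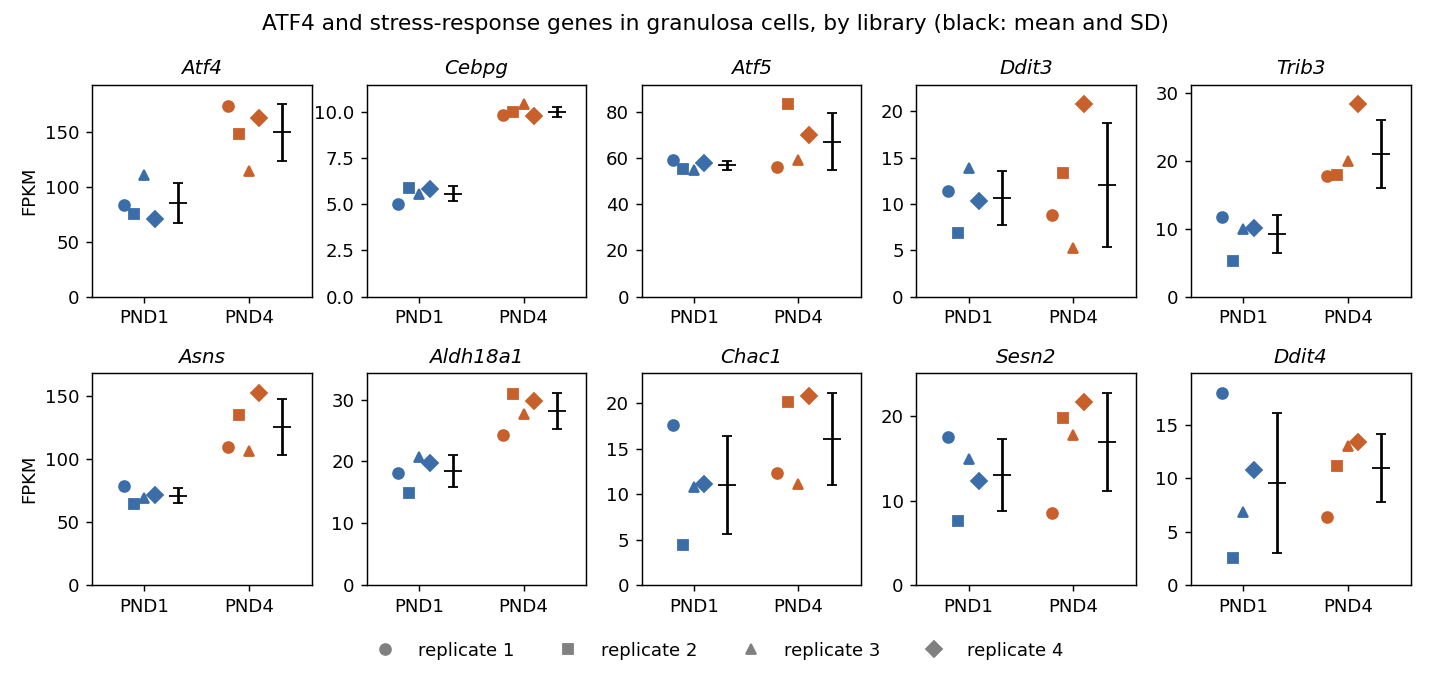
FPKM (vertical axis, linear from 0) of the 10 genes in each PND1 (blue) and PND4 (orange) library, with marker shape for the replicate number and the mean and SD of each age in black. Atf4, Cebpg, Trib3, Asns and Aldh18a1 are separated by age, while in Atf5, Ddit3, Chac1, Sesn2 and Ddit4 the ages overlap. In Ddit4 the PND1 libraries enclose those of PND4, and in Ddit3 the PND4 libraries enclose those of PND1.

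The libraries differed in ways that bear on these values. Granulosa markers, 17 of 18 of them listed, summed to 970 to 1306 FPKM at PND1 and 975 to 1263 at PND4. Among them Krt18 stood at 378 to 552 FPKM and Foxl2 at 10.5 to 26.2 over all libraries. Both were thus present, which does not show how pure the cells were. Oocyte markers (13 of 15 listed) summed to 15.2 to 87.5 FPKM at PND1 and 46.0 to 72.1 at PND4 except 308 in PND4 replicate 3, and of the germ cell markers Ddx4 was at most 2.96 FPKM, while Dazl stood at 1.55 to 4.71 at PND1 and 0 to 2.17 at PND4. Erythroid markers (3 of 6) summed to 17.1 to 48.9 and 0.268 to 11.4 FPKM and did not overlap between ages, stroma markers (11 of 12) to 187 to 216 and 210 to 273, and immune markers (5 of 10) to 9.27 to 29.8 and 2.92 to 59.8. Steroidogenic markers (2 of 6) summed to 4.71 to 12.6 and 2.33 to 6.26 FPKM, and surface epithelium markers (8 of 9) to 612 to 738 and 660 to 767. The surface epithelium list includes Wt1 and Gata4, and the granulosa list Krt18 and Krt8, genes not confined to 1 of these cell types. Neither sum thus measures its cell type alone. Of 7 endothelial markers 0 were listed, so they gave no sum. Mitochondrially encoded transcripts took 26.6% to 30.6% of the listed FPKM at PND1, 29.4% in PND4 replicate 1 and 22.4% to 23.4% in the other PND4 libraries, and replicate 1 of each age had the most genes listed at 0 (1234 and 1097, beside 222 to 858 elsewhere). The part of these differences in the results below was not tested. In bulk RNA a change in the share of a cell type and a change in RNA per cell cannot be told apart.

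Atf4 (ENSMUSG00000042406, chromosome 15 from 80255184 to 80257541, plus strand, GRCm38) encodes the central factor of the response. Its values were 83.5, 75.1, 111 and 70.9 FPKM in PND1 replicates 1 to 4 and 173, 148, 114 and 162 FPKM in PND4 replicates 1 to 4. The ages did not overlap, but only just: the highest PND1 library, replicate 3, stood close under the lowest PND4 library, also replicate 3. The means were 85.1 ± 18.04 and 149 ± 25.7 FPKM (SD, n = 4 each), a ratio of 1.75, and the log2 difference was 0.81 (95% interval 0.44 to 1.18). With median-of-ratios or upper-quartile scaling of the libraries the ages of Atf4 did overlap, at log2 differences of 0.73 and 0.72. With 1 library left out the difference of Atf4 ran from 0.73 to 0.94. It was 0.93 without PND4 replicate 3, the library with the most oocyte transcript. It was 0.94 without PND1 replicate 3, which had the most oocyte transcript at PND1 and the highest PND1 value of Atf4. The part of oocyte transcripts was not tested.

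Cebpg (ENSMUSG00000056216, chromosome 7 from 35046422 to 35056573, minus strand) encodes C/EBP gamma, a partner with which ATF4 forms dimers. It stood at 5.02, 5.88, 5.54 and 5.84 FPKM at PND1 and at 9.81, 9.97, 10.4 and 9.80 FPKM at PND4. No other of the 10 genes was as even within an age at PND4, with a coefficient of variation of 2.91% there and 7.08% at PND1, where the medians of all tested genes were 27.5% and 28.0%. The means, 5.57 ± 0.394 and 10.003 ± 0.291 FPKM (n = 4 each), had a ratio of 1.80, and the log2 difference was 0.75 (95% interval 0.29 to 1.20). At this low level the scale matters, since the difference was 0.84 with a pseudocount of 0.1 and 0.51 with a pseudocount of 5. In the authors' deposited table Cebpg had the smallest p-value of all genes, with a ratio of PND1 over PND4 of 0.604 and a q-value of 0.107.

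Atf5 (ENSMUSG00000038539, chromosome 7 from 44812256 to 44816658, minus strand) encodes a bZIP factor related to ATF4, known for its part in the mitochondrial unfolded protein response. Its PND1 libraries were close together at 59.1, 55.1, 54.9 and 58.0 FPKM, while PND4 gave 56.2, 83.3, 59.0 and 69.9 FPKM. Replicates 2 and 4 of PND4 lay above all PND1 libraries, and replicates 1 and 3 lay within their range. The log2 difference was 0.22 (95% interval -0.086 to 0.53), with means of 56.8 ± 2.09 and 67.1 ± 12.3 FPKM (n = 4 each). It was 0.11 without PND4 replicate 2, and 0.14 with either rescaling. Atf5 shares 82 exonic bases with the nucleoporin gene Nup62 on the opposite strand, which ranged from 21.0 to 71.4 FPKM. The strand setting of the counting is unknown, so reads of the shared part could belong to either gene.

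Ddit3 (ENSMUSG00000025408, chromosome 10 from 127290774 to 127296288, plus strand) encodes CHOP, a bZIP factor linked to cell death under lasting endoplasmic reticulum stress. It stood at 11.4, 6.85, 13.9 and 10.4 FPKM at PND1 and at 8.83, 13.3, 5.28 and 20.8 FPKM at PND4. Both the lowest and the highest of the 8 values were PND4 libraries, a range of 3.93-fold within that age. The log2 difference was 0.056 (95% interval -0.74 to 0.85), and its sign was negative with either rescaling. Without PND1 replicate 2 it was -0.12, without PND4 replicate 2 it was -0.038, without PND4 replicate 4 it was -0.24, and without PND4 replicate 3 it was 0.36. Ddit3 shares 105 exonic bases on the same strand with AC144852.1, a protein-coding entry that GENCODE M21 also names Ddit3. That entry stood at 0.0015, 1.30, 12.3 and 0.0079 FPKM at PND1 and at 0, 6.65, 2.65 and 0.030 FPKM at PND4. Ddit3 also shares 68 exonic bases on the opposite strand with the synthetase gene Mars. Its reads may thus have been divided between entries.

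Trib3 (ENSMUSG00000032715, chromosome 2 from 152337422 to 152344032, minus strand) encodes a pseudokinase that ATF4 and CHOP induce and that feeds back on ATF4. It had the highest difference of the 10 genes, and 1.12% of all tested genes had a higher one. PND1 libraries stood at 11.7, 5.26, 10.01 and 10.1 FPKM and PND4 libraries at 17.7, 17.8, 19.9 and 28.3 FPKM. The ages were well apart, with PND1 replicate 2 low and PND4 replicate 4 high within their own age. The means were 9.27 ± 2.79 and 20.9 ± 5.02 FPKM (n = 4 each), a ratio of 2.26, and the log2 difference was 1.12 (95% interval 0.55 to 1.68). Leaving out any 1 library kept it between 0.89 and 1.24.

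**Figure D2:**
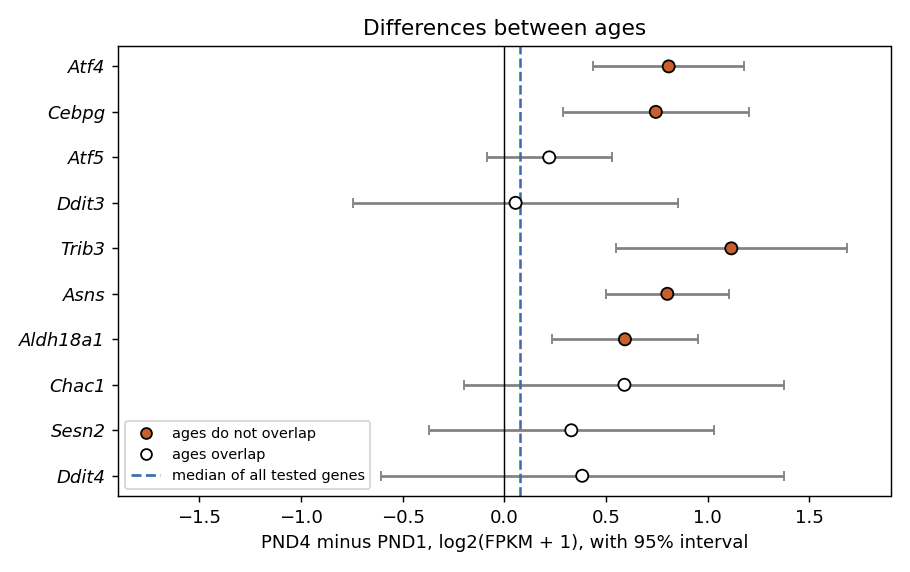
PND4 minus PND1 difference of each gene on the log2(FPKM + 1) scale with its 95% interval from limma. Filled points mark the 5 genes whose ages do not overlap, open points the others, and the dashed line is the median of all tested genes (0.078).

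The enzymes of amino acid supply were separated by age. Asns (ENSMUSG00000029752, chromosome 6 from 7675169 to 7693254, minus strand) encodes asparagine synthetase, a classical target through the composite site shown above. It stood at 78.8, 64.6, 69.2 and 71.9 FPKM at PND1 and at 109, 135, 106 and 153 FPKM at PND4, so the lowest PND4 library was well above the highest PND1 library. The log2 difference was 0.80 (95% interval 0.50 to 1.11), with a ratio of means of 1.77. Its adjusted p of 0.296 (limma) was the smallest of the 10 genes and missed the threshold.

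Aldh18a1 (ENSMUSG00000025007, chromosome 19 from 40550257 to 40588463, minus strand) encodes the enzyme that starts proline and ornithine synthesis from glutamate. Its values were 18.1, 14.9, 20.8 and 19.8 FPKM at PND1 and 24.2, 30.9, 27.7 and 29.8 FPKM at PND4. All PND4 libraries were higher, the nearest being PND4 replicate 1. Means of 18.4 ± 2.60 and 28.2 ± 2.96 FPKM (n = 4 each) gave a ratio of 1.53, and the log2 difference was 0.59 (95% interval 0.24 to 0.95). The processed pseudogene Gm15801 lies within the gene without shared exonic bases.

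Chac1 (ENSMUSG00000027313, chromosome 2 from 119351229 to 119354381, plus strand) encodes an enzyme that breaks down glutathione. It had the same log2 difference as Aldh18a1 to 2 decimals, 0.59, but an interval from -0.20 to 1.38. The PND1 libraries spread over 3.97-fold, at 17.6, 4.43, 10.8 and 11.1 FPKM, and the PND4 libraries stood at 12.4, 20.1, 11.1 and 20.8 FPKM. PND1 replicate 1 lay above PND4 replicates 1 and 3, and PND1 replicate 2 lay far below every other library. The difference was 0.25 without PND1 replicate 2 and was 0.84 without PND1 replicate 1.

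In the 2 genes that restrain mTORC1 the ages overlapped. Sesn2 (ENSMUSG00000028893, chromosome 4 from 132492032 to 132510501, minus strand) encodes sestrin 2, a leucine-sensing inhibitor of mTORC1 signalling. It stood at 17.6, 7.57, 15.0 and 12.3 FPKM at PND1 and at 8.49, 19.8, 17.8 and 21.7 FPKM at PND4. Replicates 2 to 4 of PND4 were above all PND1 libraries, whereas PND4 replicate 1 was below all PND1 libraries but replicate 2. The log2 difference was 0.33 (95% interval -0.37 to 1.03), with 0.61 without PND4 replicate 1, and 0.11 or 0.19 when PND1 replicate 2 or PND4 replicate 4 was left out.

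Ddit4 (ENSMUSG00000020108, chromosome 10 from 59949669 to 59951834, minus strand) encodes REDD1, which inhibits mTORC1 through the TSC complex and also responds to hypoxia and glucocorticoids. Its PND1 libraries, at 18.0, 2.59, 6.82 and 10.8 FPKM, spread over 6.97-fold and enclosed all 4 PND4 libraries, at 6.41, 11.2, 13.0 and 13.4 FPKM. The log2 difference was 0.38 (95% interval -0.61 to 1.38). It was -0.054 without PND1 replicate 2, but 0.75 when PND1 replicate 1 was left out and 0.60 when PND4 replicate 1 was, so both its sign and its size moved with single libraries.

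The spread within an age was shared between genes to some extent. PND1 replicate 2 gave the lowest PND1 value for 7 of the 10 genes, while it was the lowest PND1 library for 27.5% of all tested genes. After median-of-ratios scaling these were 6 of 10 genes and 24.9%. PND1 replicate 1 gave the highest PND1 value for 6 genes (21.9% of tested genes) although it was the lowest PND1 library for 43.7% of tested genes. At PND4, replicate 4 gave the highest value for 6 genes (26.7% of tested genes), and replicate 1 the lowest for 5 (46.6% of tested genes) as deposited and for 2 (34.7% of tested genes) after rescaling. After rescaling the lowest PND4 library was replicate 3 for 6 of the 10 genes, beside 23.0% of tested genes. The deviations from the age mean in PND1 replicate 2 were -1.31 for Ddit4, -1.01 for Chac1, -0.67 for Trib3, -0.66 for Sesn2 and -0.53 for Ddit3 on the log2(FPKM + 1) scale, against -0.16 for Atf4 and 0.068 for Cebpg. These libraries share any difference in handling or depth among all their genes, and the part of that was not tested.

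**Figure D3:**
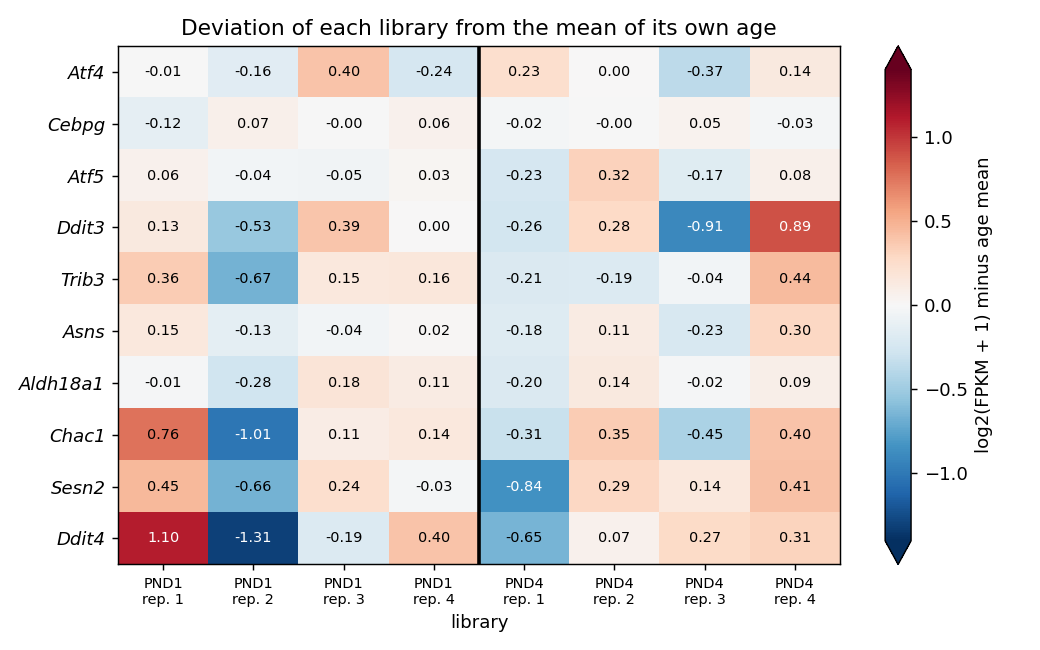
Deviation of each library (columns) from the mean of its own age for each gene (rows), in log2(FPKM + 1), so that the difference between ages is removed. In the column of PND1 replicate 2 the darkest blue cells are those of Ddit4, Chac1, Trib3, Sesn2 and Ddit3, while the rows of Cebpg, Atf5, Asns and Aldh18a1 stay pale.

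Since FPKM is scaled to length, the levels can be set side by side. Averaged over the 8 libraries the order was Atf4 (117 FPKM), Asns (98.5), Atf5 (61.9), Aldh18a1 (23.3), Trib3 (15.1), Sesn2 (15.03), Chac1 (13.5), Ddit3 (11.3), Ddit4 (10.3) and Cebpg (7.79). Atf4 and Asns overlapped within each age, while Asns and Atf5, and Atf5 and Aldh18a1, did not overlap in either age. Aldh18a1 and Trib3 overlapped at PND4 and not at PND1. From Trib3 down to Cebpg each gene overlapped its neighbour in the order within both ages. Atf4 stood at the 96.04 percentile of mean level among tested genes, and Cebpg at the 43.1 percentile. All 10 genes passed the filter on low values, with a lowest single value of 2.59 FPKM.

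Short reading frames ahead of the main one, through which phosphorylated eIF2 is known to raise translation of ATF4, ATF5 and CHOP, were counted in the GENCODE M21 transcript with the longest coding sequence of each gene. Atf4 had 3 upstream AUG codons, and Atf5 and Ddit3 had 2 each. Among 9204 tested genes with a usable transcript, 26.5% had at least 2. The second in Atf4 opened a frame of 3 codons, and the third a frame of 59 codons that ran past the start of the main frame. Atf5 likewise had a frame of 3 codons and an overlapping frame of 58 codons. Both upstream AUGs of Ddit3 opened the same frame, 34 and 31 codons before a shared stop, and that frame ended before the main one. Cebpg, Asns and Sesn2 had 1 upstream AUG each, and Trib3, Aldh18a1, Chac1 and Ddit4 had 0. No transcript of another gene matched a member's transcript at 90% identity over 200 bases or more.

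The wider pathway was followed through 12 gene lists with the 10 genes taken out. None of the 208 genes in them passed the test over all genes (limma, adjusted p), and 41 of them (19.7%) had an unadjusted p under 0.05, as had 5.90% of all tested genes. The list of other reported ATF4 targets had 45 tested genes. Of these, 42 had higher and 3 lower mean log2 values at PND4 (Ero1l, Atg12 and Slc7a1). Its median log2 difference was 0.38, beside 0.078 for all tested genes. In 14 of its genes (31.1%) every PND4 library lay above every PND1 library, beside 3.16% of all tested genes. That list holds synthetases, serine enzymes and transporters, some of which had drawn attention in these libraries before it was written, so it is not independent of the pattern. Its most abundant members were Phgdh, which opens the serine synthesis pathway, at 93.5 ± 9.87 and 143 ± 17.0 FPKM, and Gars, a glycyl-tRNA synthetase, at 109 ± 7.49 and 144 ± 15.9 FPKM (n = 4 each). Chosen after their values were seen, the secreted factor gene Gdf15 differed by 1.34, the receptor gene Vldlr by 1.32 and the cysteine-making enzyme gene Cth by 1.02 on the log2 scale. The ages overlapped in Gdf15 and were separated in Vldlr and Cth. The largest difference in the list, 1.56 for Slc7a3, also came with overlapping ages. The count of 14 became 9 with upper-quartile scaling, where 1.68% of tested genes were separated in that direction, and 22 without PND4 replicate 1, where 7.45% were.

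Upstream of ATF4, the list of eIF2 kinases, eIF2 and eIF2B subunits and phosphatases had 14 of 18 tested genes higher at PND4. Its median was 0.21, and 0.13 with upper-quartile scaling. The list also holds Impact, Gcn1l1 and Eif2a, which belong to none of these classes. The eIF2 subunit gene Eif2s2 stood at 108 ± 11.7 and 145 ± 11.1 FPKM, and the phosphatase gene Ppp1ca at 332 ± 22.9 and 337 ± 17.02 FPKM (n = 4 each). The lower genes were Impact, Eif2b4, Eif2ak1 and Eif2ak3, the last at -0.014. In 3 of the 18 genes (16.7%), Eif2s1, Eif2s2 and Eif2b3, every PND4 library lay above every PND1 library, beside 3.16% of all tested genes. Chosen after their values were seen, Eif2ak4, which encodes the amino-acid-sensing kinase GCN2, differed by 0.58, and Ppp1r15a, whose product recruits the phosphatase to eIF2, by 0.32. Both had overlapping ages.

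The IRE1 and ATF6 branches, the other arms of the unfolded protein response, had 12 of 25 genes higher and 13 lower and a median of -0.022, whose sign was not fixed: leaving out replicate 1 of PND1 gave -0.13, and leaving out replicate 1 of PND4 gave 0.072. Their most abundant genes were the chaperone genes Calr, at 233 ± 41.6 and 192 ± 23.04 FPKM, and Pdia3, at 151 ± 18.9 and 139 ± 11.9 FPKM (n = 4 each). Xbp1, the factor gene of the IRE1 branch, had every PND4 library below every PND1 library (log2 difference -0.81), a direction seen in 1.08% of tested genes, and Hspa5, for the chaperone BiP, differed by 0.36. Both were named after their values were seen. Whether these branches differ from the ATF4 targets was not tested.

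Mitochondrial chaperones and proteases, whose stress also signals to ATF4, had 7 of 11 genes higher and a median of 0.23, which was 0.092 without PND1 replicate 1, 0.15 with either rescaling and 0.085 with a pseudocount of 5. Hspa9 stood at 228 ± 11.6 and 281 ± 24.9 FPKM and Hspd1 at 195 ± 11.8 and 229 ± 14.9 FPKM (n = 4 each), both with non-overlapping ages. In that list 3 of 11 genes had every PND4 library above every PND1 library, beside 3.16% of all tested genes. The other bZIP factors that can pair with ATF4 or CHOP were evenly divided, 12 higher and 12 lower, with a median of -0.00027 that lay between -0.083 (upper-quartile scaling) and 0.072 (without PND4 replicate 3). Among them Jund stood at 159 ± 32.1 and 161 ± 32.5 FPKM and Nfe2l2 at 78.2 ± 6.77 and 85.9 ± 16.0 FPKM. Cebpa, chosen after its values were seen, was the 1 of 24 genes of that list with every PND4 library above every PND1 library (3.16% of all tested genes), at a log2 difference of 0.88.

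Around Aldh18a1, 9 of 11 genes of proline, ornithine and glutamate metabolism were higher, with a median of 0.21. That median became 0.10 when PND1 replicate 1 was left out, and was 0.33 without PND1 replicate 3 and 0.13 with either rescaling. Odc1, for the enzyme that makes polyamines from ornithine, stood at 184 ± 29.002 and 237 ± 18.1 FPKM without overlap, and Oat, for ornithine aminotransferase, at 52.6 ± 7.55 and 60.8 ± 5.71 FPKM (n = 4 each). The lower genes were Glul and Aldh4a1, the latter for a proline-degrading enzyme. Around Chac1, 6 of 9 glutathione genes were higher, with a median of 0.28. The glutathione reductase gene Gsr stood at 71.2 ± 8.24 and 86.9 ± 11.6 FPKM, and the peptidase gene Lap3 at 44.0 ± 5.37 and 56.0 ± 7.49 FPKM.

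Sesn2 and Ddit4 also answer to other signals, and the lists for these were mixed. Sestrins and mTORC1 regulators had 11 genes higher and 8 lower, with a median of 0.073, close to that of all genes, 0.19 without PND4 replicate 2 and -0.0098 without PND4 replicate 3. Lamtor1 in that list stood at 71.1 ± 6.96 and 70.2 ± 2.31 FPKM, and Rheb, which activates mTORC1, at 52.03 ± 7.30 and 63.6 ± 7.60 FPKM (n = 4 each). Of p53 targets 12 of 16 were higher, with a median of 0.25 (0.15 without PND1 replicate 1, 0.14 over genes with a mean of at least 5 FPKM, 0.16 with upper-quartile scaling), led in abundance by Cdkn1a at 79.5 ± 8.40 and 117 ± 30.6 FPKM and Ccng1 at 58.4 ± 11.7 and 86.01 ± 13.5 FPKM. Hypoxia genes had 7 higher and 9 lower with a median of -0.044, between -0.13 (upper-quartile scaling) and 0.067 (without PND4 replicate 1, or over genes with a mean of at least 5 FPKM, the latter at 0.068), among them Aldoa at 325 ± 20.9 and 343 ± 46.9 FPKM and Ldha at 288 ± 20.8 and 312 ± 22.5 FPKM. Glucocorticoid response genes had 8 of 11 higher with a median of 0.37, which was 0.15 without PND1 replicate 1 and 0.58 without PND1 replicate 4, although their most abundant genes Errfi1 (78.5 ± 20.9 and 68.8 ± 13.2 FPKM) and Dusp1 (29.7 ± 14.4 and 30.0 ± 16.1 FPKM) had log2 differences of -0.17 and -0.12. Genes that tissue dissociation can induce, a list of immediate-early and heat shock genes, had 6 higher and 10 lower with a median of -0.13. It was 0.035 when PND4 replicate 1 was left out, and leaving out replicate 3 of PND1 or of PND4 gave -0.041 or -0.24. The most abundant were Ier3 at 190.4 ± 31.1 and 151 ± 17.4 FPKM and the heat shock gene Hspb1 at 172 ± 35.04 and 148 ± 13.9 FPKM.

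**Figure D4:**
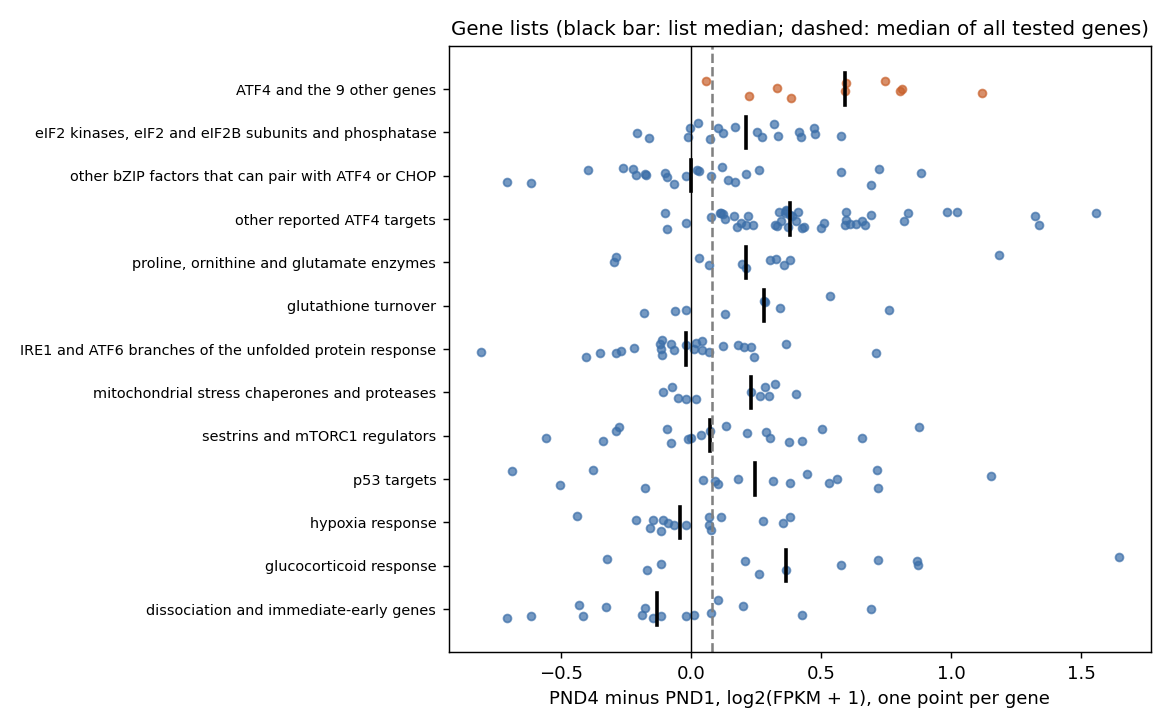
PND4 minus PND1 difference in log2(FPKM + 1) for ATF4 and the 9 other genes (orange) and for the tested genes of 12 pathway lists (blue), 1 point per gene, with each list's median as a black bar. The ATF4 target list lies mostly to the right of the median of all tested genes (dashed), while the IRE1 and ATF6, bZIP and hypoxia lists straddle it.

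Genes whose values over the 8 libraries were most like those of Atf4 were ranked by Pearson's r of log2(FPKM + 1) among 4825 genes at or above the median level, the 10 genes themselves and predicted loci (symbols of Gm with digits, or ending in Rik) left out. The highest were Rpl38-ps2 (r = 0.95), the asparaginyl-tRNA synthetase gene Nars (0.95), the pyrophosphatase gene Ppa1 (0.94), the ribosome recycling gene Abce1 (0.93) and Heatr3 (0.93). These libraries belong to 2 ages, so r here includes the difference between the ages. With each age's mean subtracted the highest were Rpl38-ps2 (0.92), the mitochondrial ribosomal protein gene Mrpl34 (0.92), Znhit1 (0.91), Oraov1 (0.87) and Gtf2e1 (0.87). By the same measures the other genes of the set had r with Atf4 from 0.17 (Ddit4) to 0.85 (Asns) with age included, and from -0.50 (Cebpg) to 0.63 (Ddit3) with age means subtracted. With 8 points that share depth and handling these are descriptions.

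In the authors' deposited table all of these genes except Ddit3 had lower PND1 than PND4 values, with ratios of PND1 over PND4 of 0.475 for Trib3, 0.561 for Atf4, 0.581 for Asns, 0.690 for Aldh18a1 and 0.674 for Chac1. Ddit3 had a ratio of 1.01 in the authors' deposited table. Apart from that of Cebpg, the q-values of the set in the authors' deposited table ran from 0.541 to 0.994.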

How the data were processed

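RNA was taken from granulosa cells with a column kit and made into Illumina libraries, per the labels' protocols. Reads were handled with Trim Galore and HISAT2 on GRCm38, per the submitters' processing notes. The authors deposited FPKM for 8 libraries, per the file headers, in a table filtered to 11783 genes; no source used here names the program, annotation, strand setting or filter. The authors also deposited a ratio of PND1 over PND4, its log2 value, and p-values and q-values, used here only as quoted.

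Values were tested as log2(FPKM + 1) for the 10756 genes that reached 1 FPKM in 4 or more libraries, with limma 3.58.1 in R 4.3.3 (mean-dependent prior variance, no block), PND4 minus PND1, Benjamini-Hochberg adjusted p under 0.05. The step was tested on simulated data. Ages came from the labels. P-values thus reflect library-to-library spread, which may be technical, and read depth is unknown. The members and gene lists were chosen with earlier results of these data known. Named genes were the 10 members, the 2 most abundant tested genes of each list, any gene past the test, and the 5 most like Atf4 by each measure; others are marked. Positions and transcripts came from GENCODE M21 (GRCm38), which holds 11774 of the 11783 identifiers, promoter sequences from RefSeq (GRCm38.p6), and transcript matches from BLAST 2.17.0. Alternatives were 2 other scalings, 2 other filters, 2 other pseudocounts, a replicate block, and 8 fits without 1 library each. Counts of separated genes under other scalings and without single libraries were added after seeing the data. Figures were drawn with matplotlib 3.10.9.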

Additional observations from a re-analysis of the deposited data

Results flagged for a closer look

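The sum of oocyte markers in PND4 replicate 3, 308 FPKM, stood far from the other PND4 libraries, at 46.0 to 72.1 FPKM. Among the 10 stress-response genes and 7 marker sums, 34 sets of 4 libraries were examined in this way, and this was the 1 that stood apart, where chance alone, at about 1 in 20, would give 1.7. In that library Atf4, Asns, Chac1 and Ddit3 had their lowest PND4 values, 114, 106, 11.1 and 5.28 FPKM, and Cebpg its highest, 10.4 FPKM. The part of the oocyte transcripts in these values was not tested.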

How the results depend on the processing

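The counts of genes called over all genes, 0 higher and 1 lower at PND4, were the same under all 15 alternatives, and none of the 10 genes passed in any (smallest adjusted p 0.178, for Asns). Their median log2 difference was 0.52 with median-of-ratios and 0.51 with upper-quartile scaling, where the median of all genes was 0.0086 and 0.0027, and 0.38 to 0.73 with 1 library left out. The replicate block gave 0 and 1 calls and a median of 0.59; same-numbered libraries had correlated deviations of -0.0088 to 0.12, so the numbers were not taken as pairs. Signs of 8 genes held under all 15. That of Ddit3 turned with median-of-ratios scaling (-0.016) and upper-quartile scaling (-0.022), and it ran from -0.24 to 0.36 with 1 library left out (-0.12 without PND1 replicate 2, -0.038 without PND4 replicate 2, -0.24 without PND4 replicate 4). That of Ddit4 turned without PND1 replicate 2 (-0.054; up to 0.75 without another library). The causes were not tested. Of the 5 genes with separated ages, all but Atf4 remained under either scaling (1.74% and 1.68% of tested genes). Leaving out a library cannot undo a separation. That all 5 stayed separated without any 1 library (4.45% to 7.45% of tested genes) was therefore fixed in advance and shows nothing. Chac1 joined them without PND1 replicate 1, and Sesn2 without PND4 replicate 1. FPKM gives no read depth, so counting error is unknown. It depends on transcript length as well as level, and the transcripts used ranged from 890 bases (Ddit3) to 4709 bases (Cebpg).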
